A study of Bos taurus with 12 samples.

Results

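The family described here comprises the bifunctional enzymes PFKFB1, PFKFB2, PFKFB3 and PFKFB4, the phosphofructokinase subunits PFKL, PFKM and PFKP, and fructose-1,6-bisphosphatase 1 (FBP1). These 8 genes were taken by symbol, through the RefSeq accession given with each probe, and matched 22 of the 43653 probes on a bovine Agilent array that named 12639 genes. Mammary gene expression was measured in 12 multiparous Holstein cows in early lactation (24 ± 3 days in milk), with 1 array per cow. The 6 CONT cows had free access to a lactation diet, and for the 6 REST cows barley straw made up 48% of the dry matter offered over 4 days. Every cow of both groups had received 50 µg of lipopolysaccharide (LPS) in the udder 24 h before the biopsy, so the comparison is between diets in challenged glands and holds no unchallenged tissue. The cows were those whose RNA quality sufficed for arrays. A biopsy mixes cell types, and fewer cells of a type cannot be told apart from less RNA per cell.

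Phosphofructokinase commits fructose 6-phosphate to glycolysis by adding a phosphate, and FBP1 removes that phosphate in gluconeogenesis. The bifunctional enzymes make and break down fructose 2,6-bisphosphate, a signal molecule that activates phosphofructokinase and inhibits FBP1. The isoforms differ in their balance of kinase and phosphatase activity and in the signals that control them. In the lactating gland glucose is the precursor of lactose, and leukocytes that enter an inflamed gland also consume it by glycolysis.

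Each value is the log2 spot intensity minus the 75th percentile of its array, so that 0 marks a spot as bright as that percentile. Probes are numbered within a gene from the brightest, which stands for the gene unless another is named. Levels of different probes are not comparable. The 75th percentile was 577.1 to 1184 in CONT and 386.9 to 1082 in REST, and 57.6% to 78.1% of probes were well above background on an array. The arrays lay on 3 slides with unequal numbers of each diet, namely 3 CONT and 1 REST, 1 CONT and 3 REST, and 2 of each. The negative controls read 7.07 to 17.3 on the first slide and 3.44 to 4.98 on the others. All 7 matched markers of the mammary epithelium, LALBA and CSN1S1 among them, were well above background on every array.

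No member probe passed an adjusted p of 0.05 with limma and Benjamini-Hochberg over all probes, where 0% of the 43653 probes did. Unadjusted p-values under 0.05 were found for 2 of the 22 member probes, namely PFKFB4 probe 1 and PFKM probe 6, against 2.62% of all probes. Taking the brightest probe, 1 of the 8 genes (PFKFB4) had such a value, against 2.64% of all genes. PFKFB4 had the 9th lowest p of the 12639 genes. No member separated the diets without overlap, against 0.128% of all probes. The REST mean was higher for 7 genes and lower for PFKFB2, but PFKFB1, PFKFB2, PFKL, PFKM and PFKP lay near 0 and changed sign with at least 1 alternative setting or omitted cow. PFKFB1, counted among the 7 and in the member medians below, did not exceed background in any cow. The median difference (REST minus CONT, log2) over the members was 0.12, beside -0.03 over all genes, of which 43.5% were higher in REST. With slide as a block the medians were 0.23 and 0.01, and 52.4% of all genes were higher in REST.

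**Figure D1:**
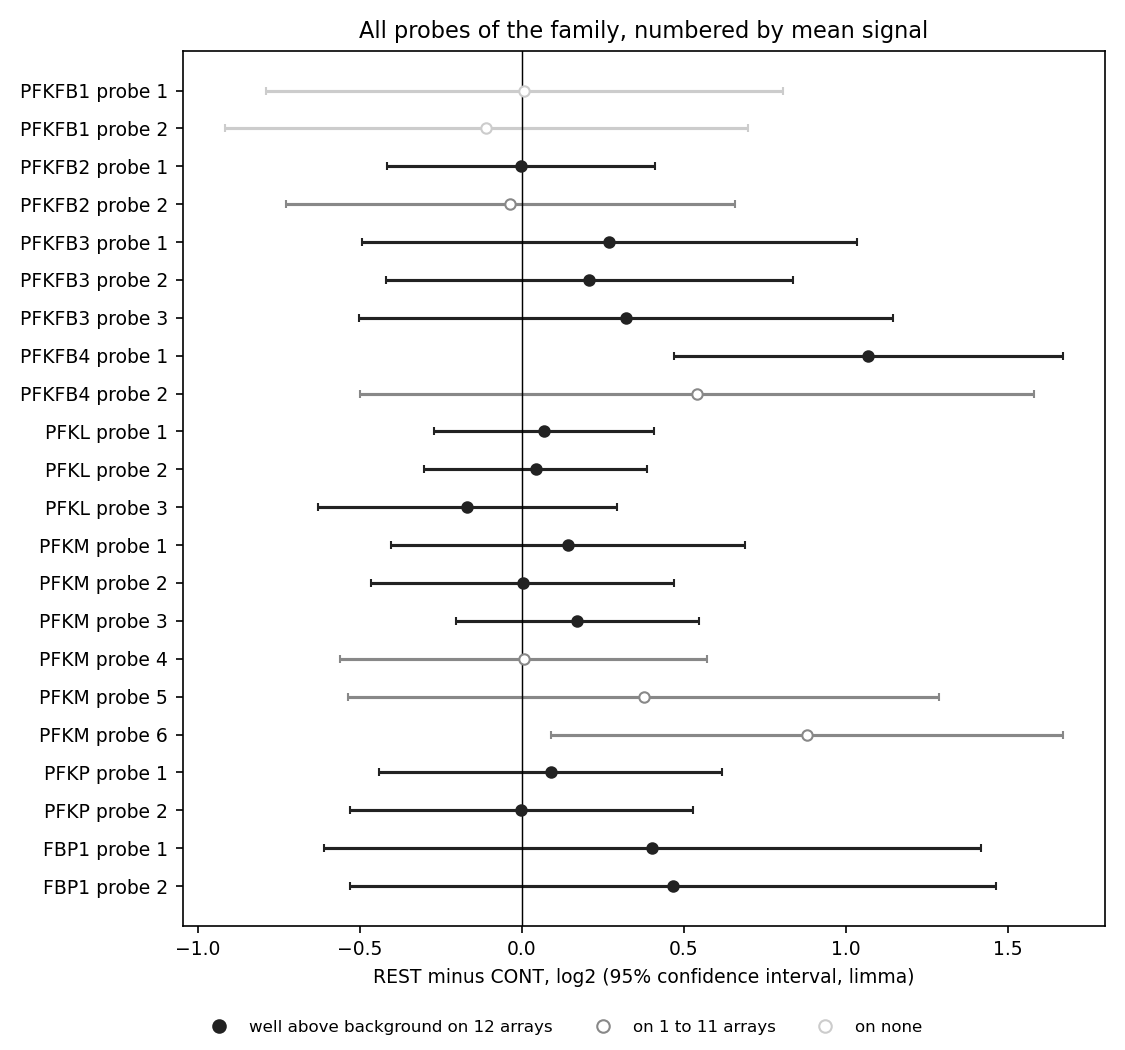
Difference REST minus CONT on the log2 scale, with its 95% confidence interval from limma, for each of the 22 member probes. PFKFB4 probe 1 stands at 1.07, the intervals of all probes other than it and PFKM probe 6 include 0, and open points mark probes that were not well above background on every array.

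PFKFB4, an isoform known to be induced by hypoxia and linked to autophagy, had the widest difference between the diets among the members. Its log2 signal (probe 1, NM_001192835) was -4.56 in the lowest CONT cow, with a median of -3.67 and -3.16 in the highest. In REST it was -3.32 at the lowest, with a median of -2.77 and -1.90 at the highest. Of the 6 REST cows, 5 lay above every CONT cow, and the groups overlapped only through REST cow 6.

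The CONT cows had a mean PFKFB4 signal of -3.74 ± 0.51 (SD, n = 6) and the REST cows one of -2.67 ± 0.47 (SD, n = 6). The difference was 1.07 (standard error 0.28, 95% confidence interval 0.47 to 1.67), a fold change (FC) of 2.10. The unadjusted exact permutation p over the 12 cows was 0.00433, where 0.00216 is the lowest the design allows, and the adjusted p of limma was 0.99992. PFKFB4 was singled out with this difference already known, so these p-values are a description.

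Within the slides the PFKFB4 difference was 0.69, 1.44 and 1.02, and so REST was higher on all 3. The gene was dim, at 49.0 to 117 intensity units in CONT and 72.3 to 153 in REST, although well above background on all 12 arrays. With normexp background correction, which adds an offset of 50 to every spot, the difference was 0.42 (FC 1.34, interval -0.21 to 1.05). Probe 2, which exceeded background on only 4 arrays (1 CONT, 3 REST), gave a difference of 0.54 (standard error 0.48) that turned to -0.0082 with normexp.

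**Figure D2:**
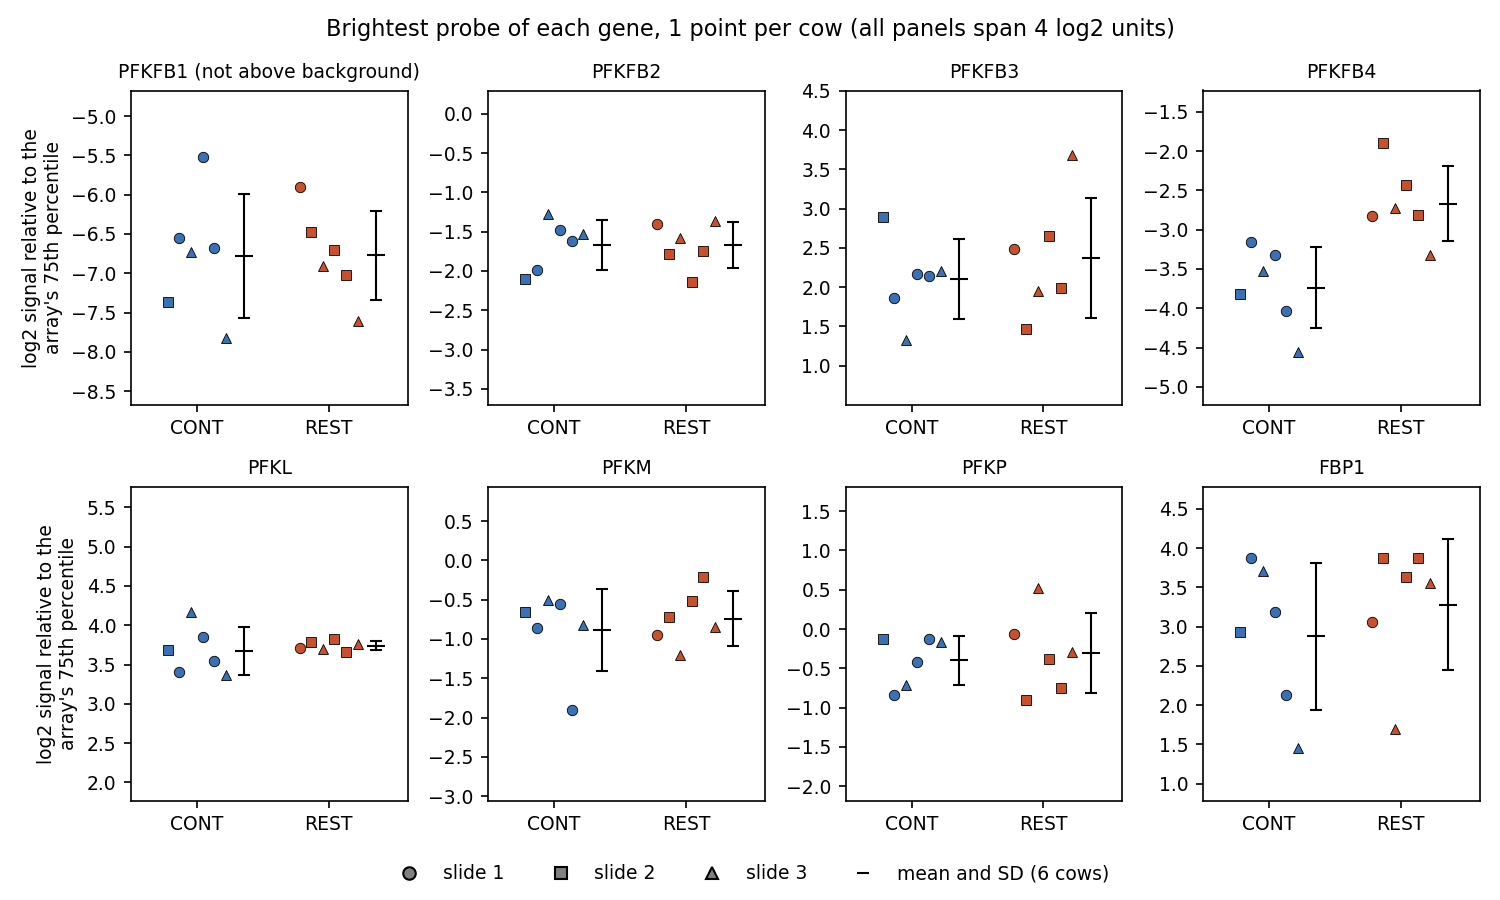
Log2 signal relative to the array's 75th percentile for the brightest probe of each of the 8 genes, 1 point per cow, with shapes for the slide and bars for the mean and SD of 6 cows. PFKFB4 is the only panel with 5 REST cows above all CONT cows, PFKL shows the narrow REST group, and FBP1 has its lowest values in CONT cow 6 and REST cow 3.

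PFKFB3, the isoform with the strongest kinase activity and one that LPS induces in myeloid cells, was well above background in every cow. Its signal (NM_001077837) ran from 1.32 to 2.89 in CONT, with a median of 2.16, and from 1.47 to 3.68 in REST, with a median of 2.23. The groups overlapped over most of their range, and REST cow 6 stood highest. The difference was 0.27 (standard error 0.35, interval -0.49 to 1.04), smaller than the spread between cows.

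The other 2 PFKFB3 probes gave differences of 0.21 and 0.32, and both were above background in every cow. The slides did not share a direction, with differences of 0.42, -0.86 and 1.06 for the brightest probe. Without REST cow 6 this difference was 0.01, and it was 0.45 at most when another cow was left out.

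PFKFB2, the isoform best known from heart and responsive to insulin signalling, had nearly equal means in both diets. Its signal (NM_174812) was -2.11 to -1.27 in CONT and -2.14 to -1.36 in REST. The difference was -0.0023 (standard error 0.19), and its interval of -0.42 to 0.41 corresponds to an FC between 0.75 and 1.33. For PFKFB1 (NM_174572), the liver and muscle isoform, neither of the 2 probes rose well above background in any cow, and no fold is given. Intensities of PFKFB1 were 1.06 to 1.78 times the median of the negative controls on the same array.

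The phosphofructokinase subunits form the tetramers that carry out the committed step, and none of their brightest probes had an unadjusted p under 0.05. PFKL, the liver-type subunit (NM_001080244), ran from 3.37 to 4.17 in CONT and from 3.66 to 3.83 in REST. The SD was 0.30 in CONT and 0.062 in REST, and the REST cows all lay inside the CONT range. The difference was 0.07 (standard error 0.16, interval -0.27 to 0.41), and probes 2 and 3 gave 0.04 and -0.17. The SD in CONT and REST was 0.28 and 0.15 for probe 2, and 0.30 and 0.41 for probe 3, so that REST was the narrower group in probes 1 and 2 but not in probe 3.

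PFKP, the platelet-type subunit (NM_001193220), was -0.84 to -0.12 in CONT and -0.90 to 0.53 in REST, with REST cow 3 highest. Its difference was 0.09 (standard error 0.24), and its second probe gave -0.00065. For PFKM, the muscle-type subunit (NM_001075268), the 3 brightest probes exceeded background in all cows and gave 0.14, 0.0035 and 0.17, each with an interval that included 0.

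The remaining 3 PFKM probes were dim. Probe 6 had a difference of 0.88 (standard error 0.36) with an exact permutation p of 0.0606, but it exceeded background in only 1 cow of each diet. It followed the brightest PFKM probe only loosely over the cows (r = 0.32), while probes 2 and 5 followed it with r of 0.88 and 0.87. CONT cow 5 had the lowest PFKM signal, -1.91, with the other CONT cows between -0.86 and -0.50.

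FBP1, the bisphosphatase of liver and of other epithelia, had the widest SD within the diets among the measured members. Its signal (NM_001034447) was 1.46 at the lowest, 3.05 at the median and 3.88 at the highest in CONT, and 1.70, 3.59 and 3.88 in REST. CONT cow 6 was the lowest of its group, with CONT cow 5 next at 2.12, and REST cow 3 had 1.70, where the next lowest of the REST cows had 3.05. The means were 2.88 ± 0.93 and 3.28 ± 0.83 (SD, n = 6), a difference of 0.40 (standard error 0.47, interval -0.61 to 1.42). The values of both FBP1 probes were closely correlated over the cows (r = 0.98), and probe 2 differed by 0.47 (standard error 0.46). The difference of probe 1 was 0.12 without CONT cow 6, 0.25 without CONT cow 5 and 0.72 without REST cow 3. Within the slides it was -0.0067, 0.86 and 0.051, and with slide as a block 0.28.

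The PFKFB4 difference was also set against that of each other member, as the difference between both genes within an array. Since PFKFB4 was chosen with its difference known to be the widest, these 7 contrasts are a description, and no test is drawn from them. The PFKFB4 difference exceeded that of PFKL by 1.00 (interval 0.40 to 1.602), that of PFKFB2 by 1.07 (interval 0.21 to 1.93) and that of PFKM by 0.93 (interval 0.20 to 1.66). The contrasts with PFKP (0.98, interval -0.06 to 2.02), PFKFB3 (0.80, interval -0.51 to 2.11) and FBP1 (0.67, interval -0.24 to 1.57) had intervals that included 0. That with PFKFB1 is not given, since that gene had no measured level. With normexp the contrasts with PFKL, PFKFB2 and PFKM were 0.36, 0.44 and 0.36, and those with PFKP, PFKFB3 and FBP1 were 0.35, 0.14 and 0.00028. With each gene's probes averaged that with PFKM was 0.54, that with PFKFB3 0.54 and that with FBP1 0.37. The contrast with PFKFB3 was 0.47 without REST cow 2, and that with FBP1 was 0.36 without REST cow 3.

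**Figure D3:**
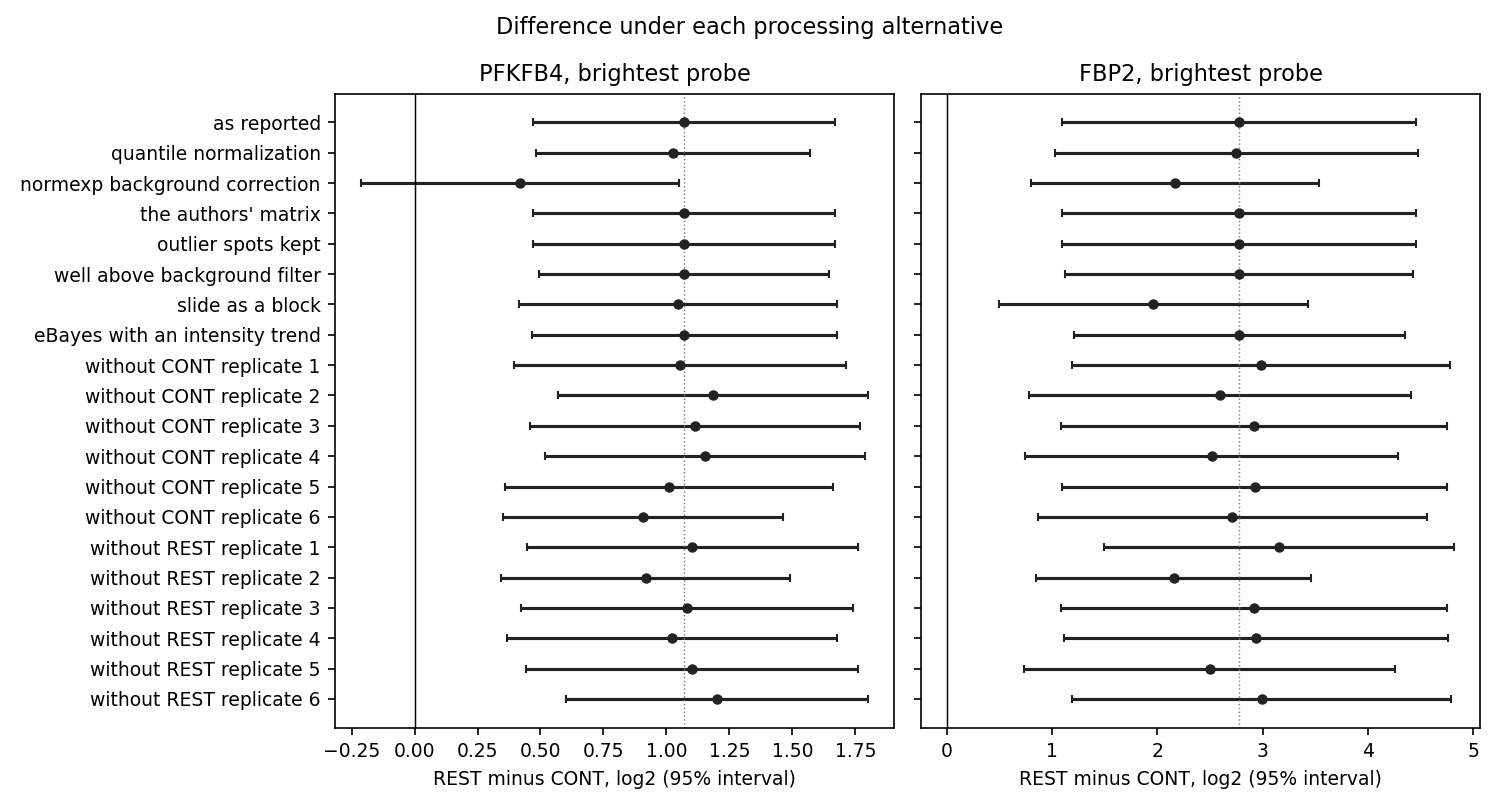
Difference REST minus CONT (log2) with its 95% confidence interval for the brightest probes of PFKFB4 and FBP2 under each processing alternative and with each cow left out. For PFKFB4 the interval includes 0 under normexp only, and for FBP2 the difference stays between 1.96 and 3.16.

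Over the 12 cows, 28 pairs of members were correlated, with permutation tests of 100000 resamples. A single pair passed after adjustment, and it joined FBP1 with PFKP in opposite directions. Pearson's r was -0.80 (permutation p = 0.00070, adjusted 0.0196) and Spearman's rho was -0.86 (permutation p = 0.00063, adjusted 0.0176). Without the 2 cows farthest from the median of PFKP r was -0.70, with slide means subtracted -0.76, and with diet means subtracted -0.86. PFKFB4 correlated with FBP1 at r = 0.56 (adjusted permutation p = 0.535) and with PFKFB3 at r = -0.19 (adjusted permutation p = 0.799). With diet means subtracted these were 0.61 and -0.58.

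Markers of the cell types in a biopsy moved with several members. The markers of each of 10 cell types were summed per cow and correlated with the 7 measured members, a comparison added after the values were seen, and 8 of the 70 Pearson correlations passed after adjustment. PFKFB3 followed the summed macrophage markers CD68, CD163, CSF1R and MSR1 with r = 0.91 (adjusted permutation p = 0.00875) and rho = 0.91 (adjusted permutation p = 0.0091). REST cow 6 was highest in both, and r was 0.72 without the 2 cows farthest from the median. By single marker r was 0.85 for CD68, 0.71 for CD163 and 0.72 for CSF1R, but -0.34 for MSR1. The share of MSR1 in the macrophage sum ran from 3.06% to 68.3% by cow, and was highest in REST cow 2. PFKFB3 also followed the neutrophil markers (r = 0.80, adjusted permutation p = 0.0337), of whose sum S100A12 made up 98.3%, and the leukocyte markers (r = 0.78, adjusted permutation p = 0.0367), a list that shares CSF1R with the macrophage list.

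FBP1 followed the sums of the mammary epithelium markers (r = 0.85), adipose markers (r = 0.82) and erythroid markers (r = 0.81), each with an adjusted permutation p of 0.00875 to 0.0105. A sum weights bright probes most. FABP4 and CIDEA together made up 98.5% of the adipose sum. The milk protein genes LALBA and CSN1S1 together made up 80.9% of the epithelial sum, and the erythroid sum was that of the haemoglobin gene HBA alone, which made up at least 99.4% of it. HBB exceeded background in 1 cow and ALAS2 in 0. CONT cow 6 and REST cow 3, the lowest in FBP1, also had the lowest epithelial sums (log2 9.22 and 9.58, against up to 11.5). PFKP went the other way, with r = -0.77 to the epithelial markers (adjusted permutation p = 0.0367). By rank, none of these pairs other than PFKFB3 with the macrophage markers passed after adjustment (adjusted permutation p of rho 0.0771 to 0.0869). The part of tissue composition in the members' values was not tested.

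PFKFB4 correlated with the adipose markers at r = 0.74 (adjusted permutation p = 0.0421), but rho was 0.50 (adjusted permutation p = 0.256) and r was 0.33 without the 2 cows farthest from the median. FABP4 and CIDEA made up at least 94.7% of the adipose sum in every cow, with r of 0.73 and 0.43 to PFKFB4. Of the other 5 markers, PPARG (r = 0.67, above background in 12 cows) and LIPE (r = 0.57, in 10 cows) also went with PFKFB4. CIDEC, PLIN1 and LEP, which exceeded background in 9, 3 and 5 cows, had r of -0.10, -0.09 and -0.02. CONT cow 6, the lowest in PFKFB4, also had the lowest adipose sum (log2 3.71, with the other cows at 6.12 to 8.54). Fibroblast markers went against PFKFB4 (r = -0.70, adjusted permutation p = 0.0727), and endothelial markers went with it (r = 0.70, adjusted permutation p = 0.0672). With diet means subtracted these were -0.50 and 0.57, and without the 2 cows farthest from the median -0.48 and 0.50. CONT cow 6 was lowest in the endothelial sum too (log2 1.15, with the others at 2.84 to 3.66), and r was 0.51 without this cow, an omission added after the values were seen.

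Of the 6 fibroblast markers, 3 were lower in REST at an unadjusted limma p under 0.05, namely the matrix genes LUM (-0.84), COL1A2 (-0.65) and COL1A1 (-0.72). Over all genes 2.64% had such a p in either direction. COL1A1 probes 2 to 5 gave -0.03, -0.38, -0.45 and -0.67, each with a p over 0.05. The fibroblast list had a median of -0.63, or -0.35 with slide as a block, and a summed level of 49.5 to 66.9 in CONT and 23.0 to 69.4 in REST. On the first slide LUM and COL1A2 were higher in REST, by 0.17 and 0.20. All 4 endothelial markers had higher REST means, VWF among them at 0.79, and only VWF had an unadjusted p under 0.05. CONT cow 6 had a VWF signal of 0.12, with the other CONT cows at 1.502 to 2.03, and without it the difference was 0.50. This cow was the lowest CONT cow in all 4 endothelial markers, but of these 4 differences only that of VWF is given here without it. Of the 7 matched leukocyte markers, 2 had higher and 5 had lower REST means, with a median of -0.09. Among the 2 was MS4A1, a B-cell marker, at 0.72 (standard error 0.28), or 0.21 with normexp. It exceeded background in 0 CONT and 4 REST cows, but its signals overlapped, at -6.46 to -4.81 in CONT and -5.38 to -4.05 in REST. MS4A1 probe 2 exceeded background in 0 cows and differed by 0.23 (standard error 0.38). All other immune, epithelial, adipose and erythroid markers had unadjusted p-values over 0.05. The part of these differences in that of PFKFB4 was not tested.

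**Figure D4:**
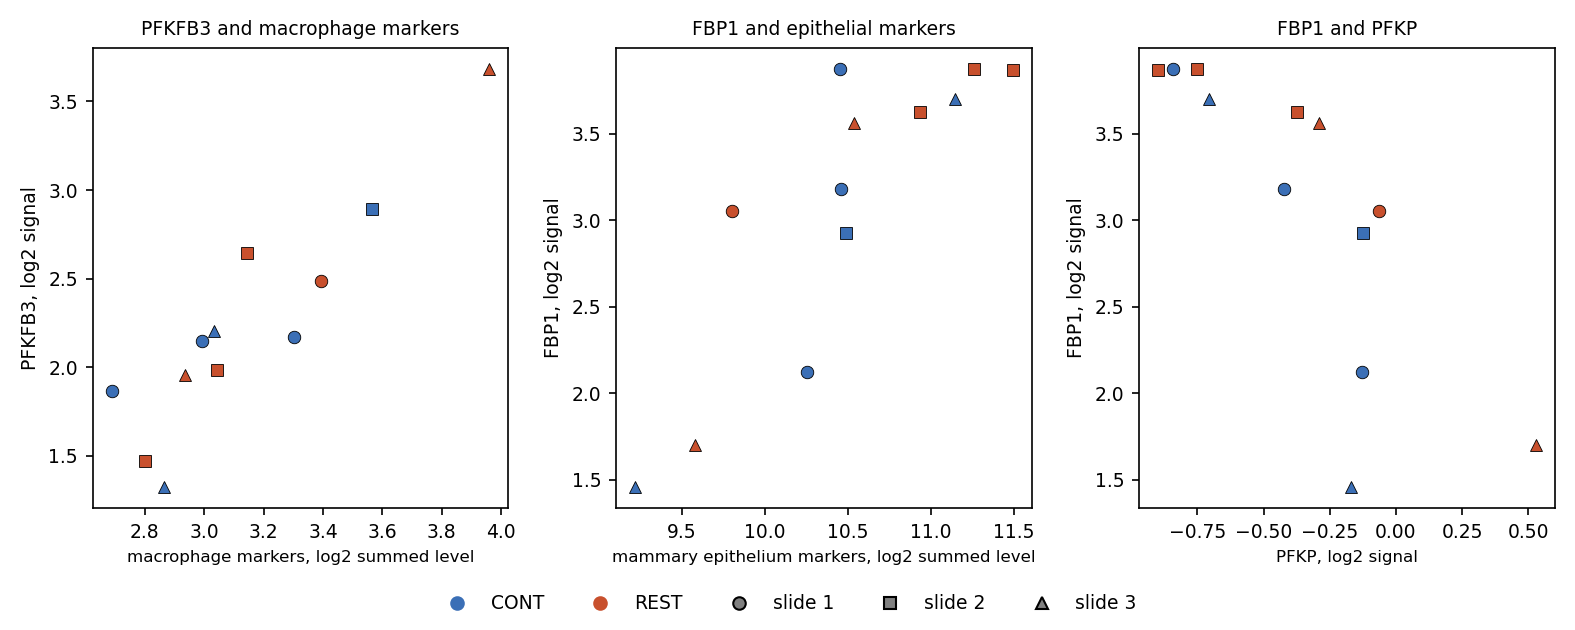
Log2 signals of PFKFB3 and FBP1 in each of the 12 cows against the log2 summed level of macrophage markers, of mammary epithelium markers, and against PFKP, with colours for the diet and shapes for the slide. PFKFB3 climbs with the macrophage markers (r = 0.91), FBP1 with the epithelial markers (r = 0.85), and FBP1 falls as PFKP climbs (r = -0.80).

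Among 9000 genes well above background on all arrays, those most like PFKFB4 over the 12 cows were the tetraspanin TSPAN4 (r = 0.89), the fast muscle myosin light chain MYL11 (r = 0.87) and SHE (r = 0.87). With diet means subtracted these were 0.74, 0.78 and 0.69. SHE was higher in REST by 0.59 (standard error 0.18) without overlap between the diets, against 0.128% of all probes without overlap. SHE was picked for its likeness to PFKFB4, which itself differed between the diets, so this difference is not a separate result. Most like FBP1 were JPT1 (r = 0.97), TMEM120B (r = 0.97) and GABARAP (r = 0.95), the last a protein of the autophagosome membrane. These likenesses are a description, with no test.

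The other enzymes of glycolysis and gluconeogenesis had a median difference near 0. Of 28 listed genes 26 were matched, 0 passed the adjusted threshold and 1 (FBP2) had an unadjusted p under 0.05, against 2.64% of all genes. The median difference of the 26 was 0.03, with 15 higher and 11 lower in REST. The 19 of them other than FBP2 that were well above background on all arrays differed by -0.26 to 0.23. Among all 25 others the highest value was that of PGAM2, the muscle-type phosphoglycerate mutase, at 0.61 (standard error 0.37), which exceeded background in 5 CONT and 6 REST cows. With slide as a block the median of the list was 0.09.

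Along the pathway, glucose phosphate isomerase (GPI) differed by 0.03 (standard error 0.19), the aldolase ALDOA by 0.02 (standard error 0.17), the pyruvate kinase PKM by -0.01 (standard error 0.28) and the lactate dehydrogenase LDHA by -0.26 (standard error 0.39). TIGAR, a phosphatase that lowers fructose 2,6-bisphosphate, did not exceed background in any cow.

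Of 13 hypoxia-inducible genes, a set that serves here beside PFKFB3 and PFKFB4, 12 were matched and 0 had an unadjusted p under 0.05, against 2.64% of all genes. The 12 were split 6 and 6 in direction, with a median of -0.03 and values from -1.002 to 0.183. Kinases and transcription factors that act on the bifunctional enzymes, such as the AMPK subunits, AKT1 and HIF1A, were listed too. Of these 15, 13 were matched and 0 had an unadjusted p under 0.05, beside the same 2.64% of all genes. The median of the 13 was 0.14, or 0.08 with slide as a block.

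FBP2, the muscle-type fructose-1,6-bisphosphatase and paralogue of FBP1, stood apart from these enzymes. Its signal (NM_001046164) was -3.38 at the lowest, -1.88 at the median and -1.02 at the highest in CONT, and -1.21, -0.06 and 3.80 in REST. Again 5 of the 6 REST cows lay above every CONT cow, with REST cow 1 inside the CONT range and REST cow 2 far above the others.

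The FBP2 difference was 2.78 (standard error 0.78, interval 1.09 to 4.46), an FC of 6.85, with an unadjusted exact permutation p of 0.00433 and an adjusted p of limma of 0.99992. FBP2 was singled out by its unadjusted p in these data, so these p-values are a description. Within the slides the FBP2 difference was 1.36, 2.94 and 1.69. The FC was 3.90 with slide as a block, 4.49 with normexp and 4.46 without REST cow 2. Probe 1, from which these values come, exceeded background in 5 CONT and 6 REST cows. Probe 2, which exceeded background in 1 CONT and 5 REST cows, differed by 2.18 (standard error 0.70). Whether a probe of FBP2 also captured FBP1 transcripts was not tested.

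FBP2 correlated with PFKFB4 over the cows at r = 0.67 (permutation p = 0.0168). The pair was chosen after both differences were known, so this p is a description. Without the 2 cows farthest from the median of PFKFB4 r was 0.40. With diet means subtracted it was 0.28. Of the 6 skeletal muscle markers, 3 had higher and 3 had lower REST means, with a median of -0.01. TNNT3 and MYL11 were higher in REST at an unadjusted limma p under 0.05, by 1.12 (standard error 0.41) and 0.74 (standard error 0.28). Over all genes 2.64% had such a p in either direction. TNNT3 exceeded background in 4 CONT and 6 REST cows, and its difference was 0.41 with normexp, where that of MYL11 was 0.62. The third of the higher markers, MYH7, differed by 0.063, and by -0.018 with normexp. By contrast, the muscle creatine kinase CKM differed by -0.09 (standard error 0.68) and the skeletal actin ACTA1 by -0.25 (standard error 0.25). The third of the lower markers, MYH1, differed by -0.97 (standard error 0.64), and by -0.29 with normexp. MYH1 exceeded background in 4 CONT and 0 REST cows. The sum of all 6 muscle markers was 2.27 to 5.50 in CONT and 2.53 to 4.35 in REST, and FBP2 correlated with it at r = 0.08 (permutation p = 0.804). ACTA1 and CKM made up 72.7% of that sum and TNNT3 3.08%. By single marker, FBP2 had r of 0.72 to MYL11, 0.63 to TNNT3, 0.42 to MYH7, 0.10 to CKM, -0.37 to MYH1 and -0.59 to ACTA1. These values are given as a description. The part of muscle tissue in the FBP2 difference was not tested.

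**Figure D5:**
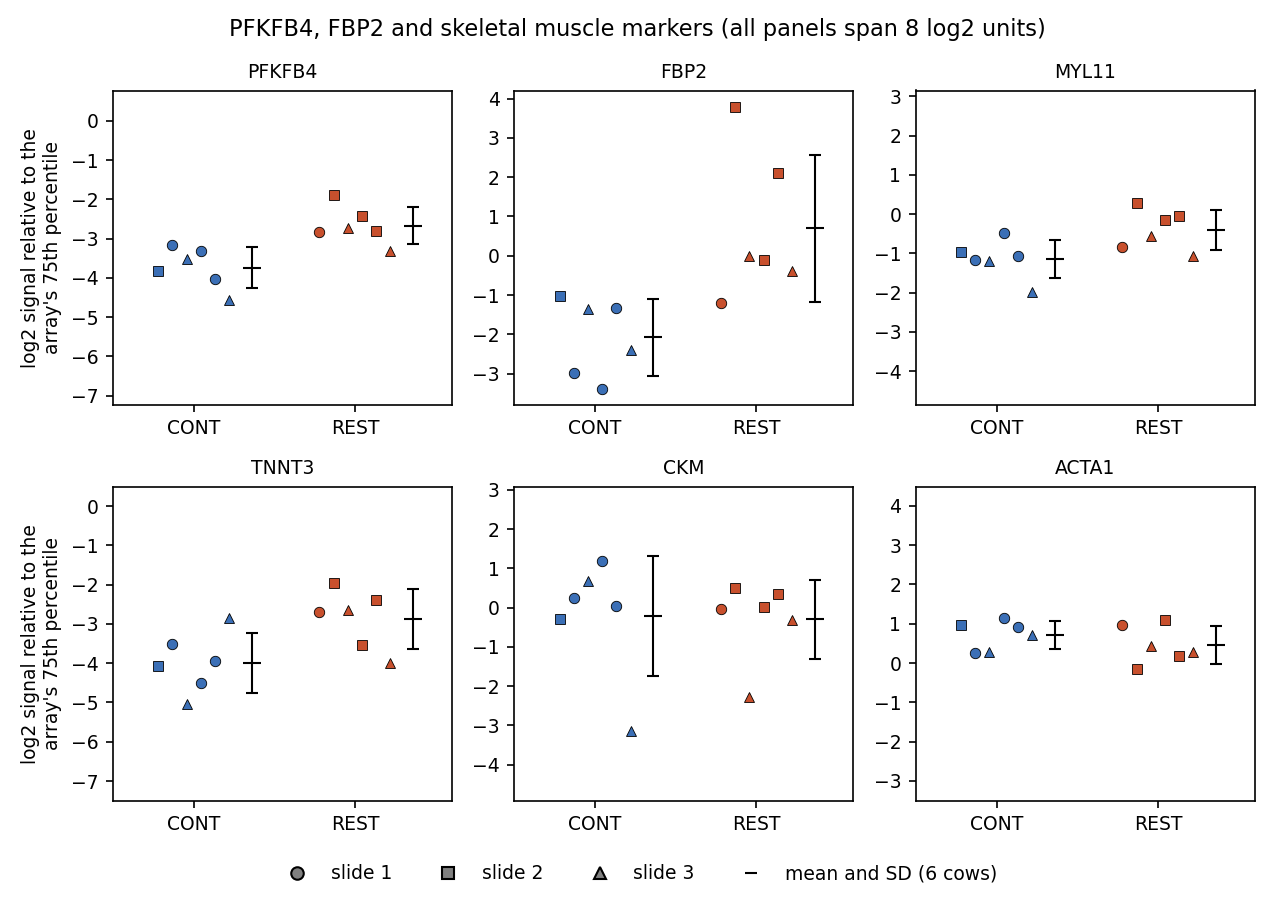
Log2 signal relative to the array's 75th percentile of PFKFB4, FBP2 and 4 skeletal muscle markers, 1 point per cow, with shapes for the slide and bars for the mean and SD of 6 cows. In PFKFB4 and FBP2 5 of the 6 REST cows lie above every CONT cow, in TNNT3 4 and in MYL11 3, and in CKM and ACTA1 0.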

How the data were processed

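Total RNA of mammary biopsies from 12 cows was amplified, labelled with Cy3 and hybridised to one-color arrays by the authors, 1 cow per array. The deposited values are spot intensities after background correction by Feature Extraction (version 11.0.1.1), not normalized between arrays. The deposited matrix held identical intensities (largest difference 0). Flags for spots well above background, saturated spots and outliers came from the deposited files, coded as 0 or 1 (another kind of value than intensity), and no member probe was saturated. Groups came from the diet in the labels, and cow numbers within a group are names in deposition order. The number of arrays limits the precision.

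The log2 of each intensity was centred on its array's 75th percentile, replicate spots were averaged per probe, and outlier spots were left out (205 probes affected). No filter was applied, so 7047 probes never above background remained. REST and CONT were compared with limma 3.58.1 (R 4.3.3; lmFit and eBayes, two-sided) over all 43653 probes, with Benjamini-Hochberg adjustment and a threshold of 0.05. The Westfall-Young adjustment of the study was not made. Single values were tested by exact permutation of the cows (924 assignments, two-sided), and correlations by 100000 resamples (scipy 1.17.1). Figures used matplotlib 3.10.9. The limma step was first tested on simulated data with known changes.

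All member probes are named. From pathway and marker lists the genes with an unadjusted p under 0.05 are named (at most 4 per list, by lowest p), as are the 3 genes most like PFKFB4 and FBP1 by Pearson's r. GPI, ALDOA, PKM, LDHA, PGAM2, TIGAR, CKM, ACTA1, MYH1 and MYH7 were named after their values were seen. So were markers given for their part in a sum or for the size of their difference. The members and lists were chosen with earlier results of these data known. Probe accessions were matched to the RefSeq table of ARS-UCD2.0. The array's annotation belongs to another assembly, so no positions are given, and no sequences were used here. Alternatives were quantile normalization, normexp (offset 50, on median spot and local background intensities), the authors' matrix, a filter on background, outlier spots kept, slide as a block, an intensity trend, a gene's mean over its probes, and leaving out each cow.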

Additional observations from a re-analysis of the deposited data

Results flagged for a closer look

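In 3 of the 44 groups of 6 cows tested (22 probes in both diets) a single cow lay far from the others by Dixon's criterion, where chance gives about 2.2. For PFKM probe 1, CONT cow 5 was at -1.91 and the other CONT cows at -0.86 to -0.50. The same cow was at -2.39 for PFKM probe 2, with the others at -1.70 to -1.30. For FBP1 probe 2, REST cow 3 was at 0.23 and the other REST cows at 1.73 to 2.42. The causes were not tested.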

How the results depend on the processing

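No probe passed the adjusted threshold under any alternative run, including each omission of 1 cow. Probes with an unadjusted p under 0.05 numbered 377 with normexp, and 825 to 1739 over the omissions, the highest without REST cow 6. Member probes with such a p numbered 1 with quantile normalization, 0 with normexp, 1 with the background filter, and 1 to 2 over the omissions. The PFKFB4 contrasts, which are a description, were smaller with normexp against PFKFB1 (0.52), PFKFB2 (0.44), PFKL (0.36) and PFKM (0.36), and with the mean over all probes of each gene against PFKFB1 (0.86), PFKL (0.82) and PFKM (0.54). Over the omissions they ranged from 0.89 to 1.27 against PFKFB1, which has no measured level, 0.88 to 1.27 against PFKFB2, 0.86 to 1.17 against PFKL, 0.75 to 1.07 against PFKM, 0.71 to 1.19 against PFKP, 0.47 to 1.19 against PFKFB3 and 0.36 to 0.85 against FBP1. The last 2 moved most, being lowest without REST cow 2 and without REST cow 3. Several differences changed sign, the largest as reported being 0.54 (PFKFB4 probe 2) and 0.17 (PFKM probe 3). With quantile normalization these were PFKFB1 probe 1 (-0.028) and PFKM probes 2 (-0.025) and 4 (-0.023). With normexp they were PFKFB1 probe 1 (-0.10), PFKFB4 probe 2 (-0.0082), PFKM probes 2 (-0.037), 3 (-0.015) and 4 (-0.017), and PFKP probe 2 (0.013). With slide as a block they were PFKFB1 probe 2 (0.14), PFKFB2 probe 1 (0.13), PFKM probes 1 (-0.042), 2 (-0.090) and 4 (-0.21), and PFKP probe 2 (0.063). With the mean over all probes they were PFKFB1 (-0.050) and PFKL (-0.018). Over the omissions the range was -0.20 to 0.26 and -0.30 to 0.13 for PFKFB1 probes 1 and 2, -0.090 to 0.091 and -0.20 to 0.14 for PFKFB2 probes 1 and 2, -0.043 to 0.11 for PFKL probe 2, -0.060 to 0.24, -0.14 to 0.12 and -0.17 to 0.15 for PFKM probes 1, 2 and 4, and -0.078 to 0.21 and -0.13 to 0.13 for PFKP probes 1 and 2. PFKFB4 probe 1 kept its direction under every alternative run, with 0.91 to 1.20 over the omissions. No paired analysis was possible because the labels give no replicate numbers shared between the diets. The causes of these changes were not tested. Probes near background, PFKFB1 foremost, are limited by their signal.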
